A study of Mus musculus with 6 samples.

Results

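The insulin-like growth factor (IGF) axis was examined in cells sorted from the mouse olfactory epithelium. It was taken as the ligand genes Igf1 and Igf2, the receptor genes Igf1r and Igf2r, and the binding protein genes Igfbp2, Igfbp3, Igfbp4, Igfbp5, Igfbp6 and Igfbp7. All probe sets whose platform symbol was one of these 10 genes were used, which gave 28 probe sets, and the array holds 18193 genes with a probe set of their own. The mice were of the outbred CD1 strain, and the labels state no transgene and no treatment. Tissue of 3 litters, at postnatal days 21, 22 and 24, was dissociated and sorted with an antibody against the cell adhesion protein ICAM1 (CD54). Bound (ICAM1-positive) and unbound (ICAM1-negative) cells of each litter went onto separate Affymetrix mouse arrays, so n = 3 in each group. The animals of a litter were pooled, each litter had its own age, and each sort holds more than 1 cell type.

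IGF1 and IGF2 are secreted peptides that act on growth, survival and differentiation through IGF1R, a receptor tyrosine kinase that signals to the PI3K-AKT and the Ras-MAP kinase routes. IGF2R, also known as the cation-independent mannose-6-phosphate receptor, takes IGF2 to the lysosome. The IGF binding proteins hold the ligands outside the cell, where they can block, store or deliver them, and proteases such as PAPP-A release the ligand again. In the olfactory system IGF signalling is known for a part in guiding sensory axons to the olfactory bulb.

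Values are the authors' deposited linear intensities, whose median over an array was 87.7 to 102.4. Differences were tested on the log2 scale with limma and adjusted by Benjamini-Hochberg over 38694 probe sets, with a threshold of 0.05. By this rule 34.9% of all probe sets tested differed, 16.9% being higher in ICAM1-positive cells and 18% lower. Of 16399 genes, each read at its brightest probe set, 41.4% differed, 20.6% being higher and 20.8% lower. Icam1 was higher on each ICAM1-positive array, as the titles have it, whereas the free-text sample descriptions name the opposite sort. Cell type markers were read in the same way. In ICAM1-positive cells, 8 of 8 markers of horizontal basal cells, the reserve stem cells of this epithelium, were higher. So were 5 of 8 of sustentacular cells and Bowman glands and 11 of 12 of macrophages. The basal cell list holds Icam1 itself, whose result was set by the sort. In the sustentacular and gland list Cyp2g1, Sec14l3 and Muc5b did not pass, at log2 differences of -0.29, -0.28 and 0.34. Krt15, C1qa and C1qc passed the filter on low values (intensity 16) only through the ICAM1-positive arrays. Cxcr2 of the neutrophil list and Frzb of the ensheathing glia list passed it only through the ICAM1-negative arrays. Neuronal markers were lower for 7 of 7 genes of mature sensory neurons and for 7 of 7 of immature neurons and precursors. Of the other blood and stromal lists, erythroid markers were lower for 3 of 3, lymphocyte for 1 of 3 and neutrophil for 2 of 8, with 0 higher. With litter as a block 4 of 8 neutrophil markers were lower. Fibroblast markers were higher for 2 of 9, ensheathing glia for 2 of 7 and pericyte and smooth muscle for 1 of 8, with 0, 1 and 0 lower (2 of 8 higher and 1 lower for pericyte and smooth muscle with litter as a block). Of 8 vascular endothelial markers 0 passed in either direction, and 0 at an unadjusted p under 0.05. Over the litters and arrays left out and the other alternatives, these counts ranged from 0 to 3 lower for erythroid, 0 to 2 for lymphocyte and 1 to 4 for neutrophil markers. They ranged from 1 to 3 higher and 0 to 2 lower for fibroblast, 0 to 2 and 0 to 2 for ensheathing glia, 0 to 2 and 0 to 1 for pericyte and smooth muscle, and 0 to 1 higher for endothelial markers.

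**Figure D1:**
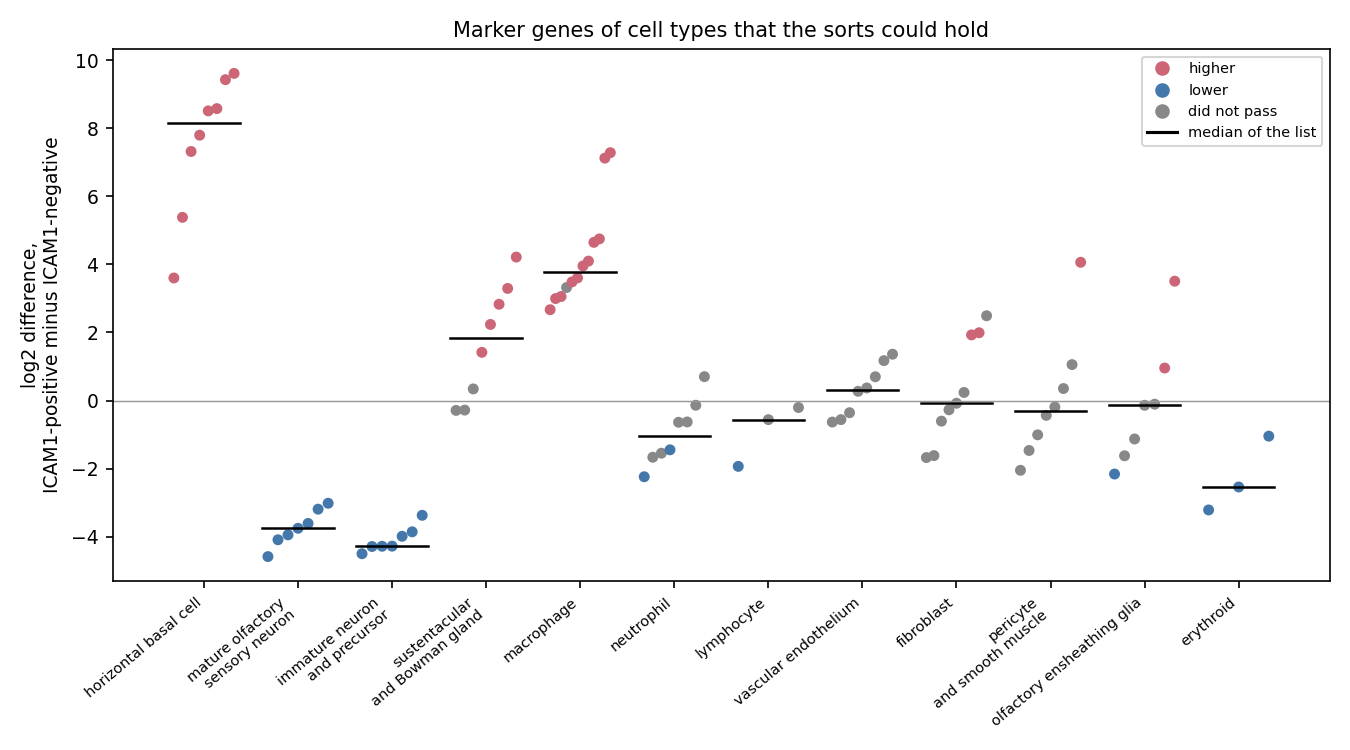
Each point is 1 measured marker gene, with the log2 difference of intensity, ICAM1-positive minus ICAM1-negative, for 12 cell type lists, with a line at each list's median. The 8 horizontal basal cell markers, Icam1 itself among them, and 11 of the 12 macrophage markers were higher. The 7 mature and 7 immature neuron markers were lower.

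Of the 10 IGF axis genes, 7 were higher in ICAM1-positive cells at their brightest probe set and 0 lower, while 3 did not pass. Among all genes 41.4% passed, with 20.6% higher and 20.8% lower. The 7 were Igfbp2, Igfbp3, Igfbp4, Igfbp5, Igf1, Igf2 and Igf2r, and the 3 were Igf1r, Igfbp6 and Igfbp7. At an unadjusted p under 0.05 the counts were also 7 and 0. The median log2 difference was 2.47 over the 10 genes and -0.06 over all genes. All 7 differences had the same sign in each of the 3 litters. Over probe sets, 27 of the 28 passed the filter on low values, and of these 17 were higher and 1 lower, against 34.9% of all probe sets in either direction, 16.9% higher and 18% lower. With litter as a block 16 were higher and 1 lower, against 37.2% in either direction, 17.8% higher and 19.3% lower. In the fit without a block the other 9 did not pass the test. Of the 17, Igfbp4 gave 6 and Igf1 gave 4, and probe sets of the same gene are not independent of each other. Of the 27, 7 had fewer than 3 arrays above the filter's intensity of 16 in 1 of the sorts. Among these, Igfbp4 1421991_a_at passed the filter only through the ICAM1-positive arrays, so its place among the 17 is not independent of the filter. In the same sort 8 of 8 horizontal basal cell markers (Icam1 among them), 5 of 8 sustentacular and gland markers and 11 of 12 macrophage markers were higher. Their part in the IGF axis differences was not tested, and more cells of a type cannot be told apart from more RNA per cell in these sorts.

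**Figure D2:**
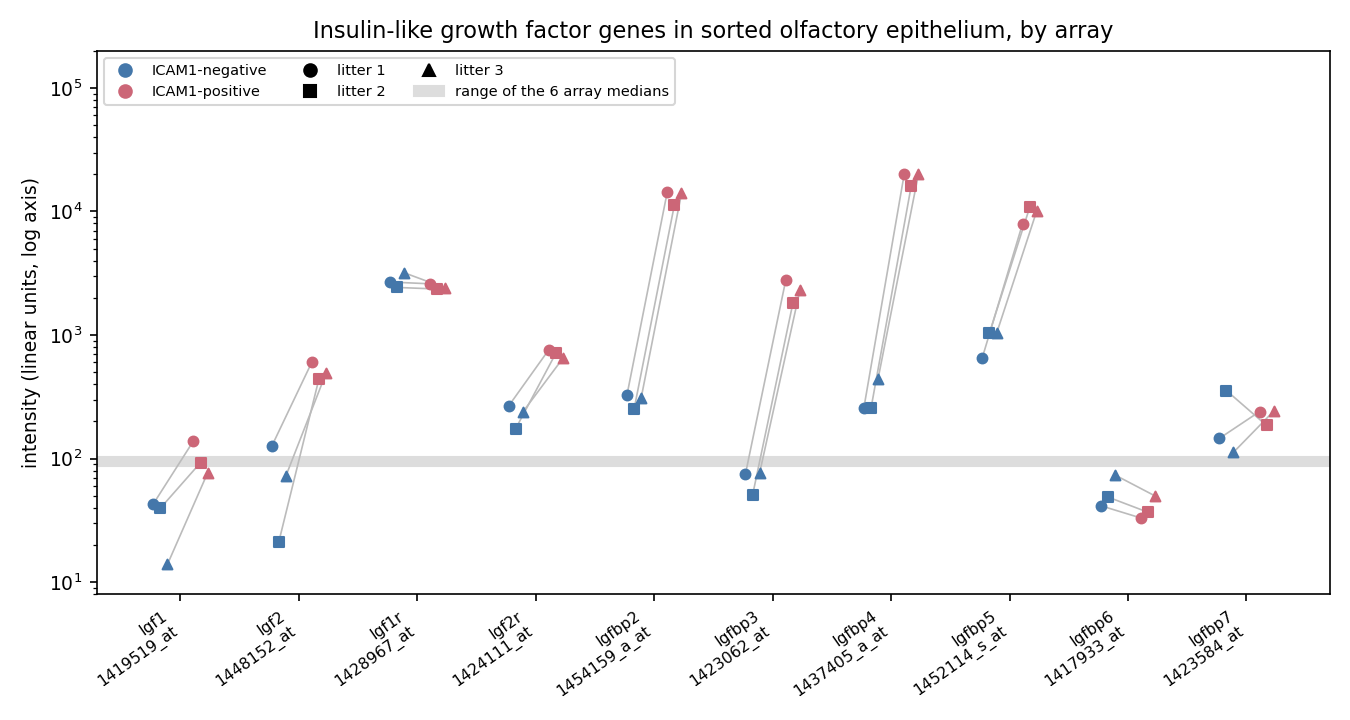
Intensity on a log axis is plotted for each of the 10 genes at its brightest probe set, with 1 point per array, marker shapes for the 3 litters, grey lines joining the sorts of a litter and a grey band for the range of the 6 array medians. The sorts do not overlap for Igfbp2, Igfbp3, Igfbp4, Igfbp5, Igf1, Igf2 and Igf2r, and they overlap for Igf1r, Igfbp6 and Igfbp7.

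The binding protein genes held the largest differences of the axis. Igfbp4, Igfbp2, Igfbp3 and Igfbp5 were higher in ICAM1-positive cells, from 10.8-fold for Igfbp5 to 60.4-fold for Igfbp4, with a bound of at least 23.5-fold for Igfbp3. Igfbp6 and Igfbp7 did not pass the test. The 250 bases before the annotated start of these 4 genes are shown because each was higher at its brightest probe set. A shared regulation was not tested. They are RefSeq sequence of GRCm38.p6, printed 5′ to 3′ on the strand of the gene, with capitals for any match to the motifs named after them. Igfbp2, at the first of its 2 annotated starts, was read at chr1:72824230-72824479 on the plus strand, Igfbp3 at chr11:7213924-7214173 on the minus strand, Igfbp4 at chr11:99040994-99041243 on the plus strand and Igfbp5 at chr1:72874866-72875115 on the minus strand.
Igfbp2: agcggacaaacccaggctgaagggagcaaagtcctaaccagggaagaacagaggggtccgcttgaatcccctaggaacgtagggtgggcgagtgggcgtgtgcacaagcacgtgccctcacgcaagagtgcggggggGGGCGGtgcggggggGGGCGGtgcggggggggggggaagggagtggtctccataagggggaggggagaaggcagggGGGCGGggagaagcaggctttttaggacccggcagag
Igfbp3: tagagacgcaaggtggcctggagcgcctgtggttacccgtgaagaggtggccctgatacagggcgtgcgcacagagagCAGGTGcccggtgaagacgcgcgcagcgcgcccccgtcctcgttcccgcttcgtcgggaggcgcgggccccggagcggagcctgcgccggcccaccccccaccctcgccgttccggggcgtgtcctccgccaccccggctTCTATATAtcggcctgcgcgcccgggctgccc
Igfbp4: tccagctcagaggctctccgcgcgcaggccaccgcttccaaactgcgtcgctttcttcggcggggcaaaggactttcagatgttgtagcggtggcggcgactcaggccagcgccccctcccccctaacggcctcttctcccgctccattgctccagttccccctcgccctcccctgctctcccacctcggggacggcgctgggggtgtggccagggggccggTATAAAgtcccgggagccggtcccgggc
Igfbp5: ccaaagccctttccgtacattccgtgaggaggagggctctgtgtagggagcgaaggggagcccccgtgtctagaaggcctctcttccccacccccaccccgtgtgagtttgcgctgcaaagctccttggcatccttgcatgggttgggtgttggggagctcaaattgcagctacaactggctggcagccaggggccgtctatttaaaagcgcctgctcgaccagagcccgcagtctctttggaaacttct
The motifs were searched on both strands. The TATA box was taken as TATANA, the GC box as GGGCGG, the CCAAT box as CCAAT, the Snail-type E-box as CACCTG and the AP-1 site as TGANTCA. Of 32851 mouse promoter windows of this length, 22.6% held the TATA box, 32.7% the GC box, 33.8% the CCAAT box, 17.2% the Snail-type E-box and 6.75% the AP-1 site. Of the 5, 0 were found in all 4 windows. Positions count back from the base before the start, which is -1. Igfbp2 held 3 GC boxes, with first bases at -113, -98 and -37. The window of its other annotated start, not shown, held 0 GC boxes and 1 AP-1 site at -39. Which start these cells use was not tested. Igfbp3 held 3 overlapping TATA box matches on both strands at -32 to -30 and 1 Snail-type E-box on the reverse strand at -172. Igfbp4 held 1 TATA box at -28. In the Igfbp5 window 0 of the 5 were found. GC content was 67.2%, 73.2%, 69.2% and 58.8% for Igfbp2, Igfbp3, Igfbp4 and Igfbp5. In the RefSeq gene order Igfbp2 and Igfbp5 are neighbouring protein-coding genes, and Igfbp3 lies next to Igfbp1.

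Igfbp4 encodes a binding protein that PAPP-A cleaves. At 1437405_a_at, its brightest probe set, intensity was 257.8, 255 and 444.2 in the ICAM1-negative sorts of litters 1, 2 and 3. In the ICAM1-positive sorts it was 19956.8, 16187.3 and 19956.5. Every ICAM1-positive array lay far above every ICAM1-negative one, at 18700.2 ± 2176 against 319 ± 108 (SD, n = 3). The log2 difference was 5.92 ± 0.28 (SE; limma, adjusted p = 0.000153), a 60.4-fold rise with a 95% confidence interval of 37.8 to 96.7. It was 6.27, 5.99 and 5.49 within litters 1, 2 and 3. Of all 16399 genes, 90 (0.549%) had a larger rise.

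The other 5 probe sets of Igfbp4 were also higher. At 1437406_x_at intensity was 195.3, 218 and 293 against 17649.8, 15377.4 and 16136.8, a log2 difference of 6.14 ± 0.21 (SE). At 1423756_s_at it was 92.9, 55 and 175.8 against 17883.1, 11651.1 and 16503, a difference of 7.29 ± 0.45. The ICAM1-negative side of this probe set was at or below the array median on 2 of 3 arrays. Differences of 4.90 ± 0.26 at 1423757_x_at and 4.20 ± 0.31 at 1421992_a_at (SE) had the same sign in 3 of 3 litters. The dimmest, 1421991_a_at, had 12.3, 12.4 and 9.5 against 195.9, 32.7 and 158.6. It passed the filter only through the ICAM1-positive arrays, and its difference of 3.15 ± 0.69 (limma, adjusted p = 0.0163) missed the threshold without litter 1 (0.108), litter 3 (0.137), the ICAM1-negative sort of litter 3 (0.0553) or the ICAM1-positive sort of litter 3 (0.0535). It also missed it at 0.54 (adjusted p = 0.199) with dim values set to the array median. The suffixes _s and _x mark probe sets that can match more than 1 transcript.

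Igfbp2 encodes a binding protein with a higher affinity for IGF2 than for IGF1. Its single probe set, 1454159_a_at, gave 328.1, 251.5 and 311 in the ICAM1-negative sorts of litters 1, 2 and 3, and 14373.6, 11283.1 and 14002.5 in the ICAM1-positive sorts. The arrays of a sort lay close together and the sorts did not overlap. The means were 296.9 ± 40.2 and 13219.7 ± 1687 (SD, n = 3). The log2 difference of 5.48 ± 0.20 (SE; limma, adjusted p = 0.000124) is a 44.6-fold rise with a 95% interval of 31.7 to 62.6. It was 5.45, 5.49 and 5.49 within the litters. A larger rise was seen for 132 genes (0.805%).

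Igfbp3 encodes the main carrier of IGFs in serum, which is also made in tissues. At 1423062_at intensity was 75, 50.5 and 76.7 in the ICAM1-negative sorts and 2769.8, 1800.3 and 2306.7 in the ICAM1-positive sorts. The ICAM1-negative side lay below the array median on 3 of 3 arrays, so the fold is given against that median, as at least 23.5-fold. The log2 difference of the intensities as deposited was 5.09 ± 0.26 (SE; limma, adjusted p = 0.000173), and it was 5.21, 5.16 and 4.91 within the litters. The other probe set, 1458268_s_at, gave 111.2, 38.5 and 65.5 against 1028.6, 446.7 and 841.1. Its difference was 3.48 ± 0.49 (adjusted p = 0.00307).

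Igfbp5 encodes a binding protein that is retained in extracellular matrix. At 1452114_s_at it gave 657.1, 1040.3 and 1029.4 in the ICAM1-negative sorts and 7983.2, 10818 and 10154.6 in the ICAM1-positive sorts. This was the only Igfbp5 probe set called higher with intensities as deposited, and its suffix _s means that it can match more than 1 transcript. The ICAM1-negative arrays were all above their array medians, and the sorts did not overlap. Means were 908.9 ± 218 and 9652 ± 1483 (SD, n = 3). This is a log2 difference of 3.43 ± 0.26 (SE; limma, adjusted p = 0.000365), a 10.8-fold rise with a 95% interval of 6.94 to 16.7. It was 3.60, 3.38 and 3.30 within the litters, and 655 genes (3.99%) had a larger rise. The dimmer 1422313_a_at gave 77.1, 13.2 and 90.1 against 116.4, 203 and 156. Its sorts did not overlap either, but the spread was wide and the difference of 1.78 ± 0.77 did not pass (adjusted p = 0.130). It passed at 0.68 (adjusted p = 0.0295) with dim values set to the array median, a setting that removes spread among the dim arrays.

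Within the ICAM1-positive sort the binding protein genes did not vary in the same order over litters. Litter 2 was the lowest for Igfbp2, Igfbp3 and Igfbp4, at -0.22, -0.33 and -0.20 from the sort's mean log2 intensity. It was the highest for Igfbp5, at 0.18. These deviations are small beside the differences between the sorts.

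Igfbp6, whose product binds IGF2 in preference to IGF1, gave 41.5, 48.8 and 73.6 at 1417933_at in the ICAM1-negative sorts and 33, 36.7 and 49.7 in the ICAM1-positive sorts. The sorts overlapped and all 6 values were below the array medians. The log2 difference was -0.44 ± 0.29 (SE), with a 95% interval of -1.15 to 0.28 and an adjusted p of 0.303 by limma. It was negative in 3 of 3 litters, at -0.33, -0.41 and -0.57.

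Igfbp7 encodes a low-affinity member of the family, abundant in vessel walls. Its brightest probe set, 1423584_at, gave 145.4, 355.5 and 112.3 against 239.8, 185.2 and 242.1. The single highest array was the ICAM1-negative sort of litter 2, and the sorts overlapped. On the log2 scale the difference was 0.30 ± 0.45 (SE; 95% interval -0.81 to 1.41; limma, adjusted p = 0.659), and it was 0.72, -0.94 and 1.11 within the litters. At 1423585_at intensity was 6.6, 44.1 and 7.9 against 26, 30.5 and 16.8. All 6 values were below the array medians, and the difference of 0.84 ± 0.76 (adjusted p = 0.445) passed at 1.53 without litter 2 (0.0416) and at 1.72 without its ICAM1-negative sort (0.0177). The probe set 1437804_at, at 5.1 to 7.5 on the 6 arrays, was the only one of the 28 not kept. Summed intensity of the 8 endothelial markers measured was 360 to 392.4 in the ICAM1-negative and 401.1 to 457.9 in the ICAM1-positive sorts. These markers were mostly dim: 0 of the 8 passed the test, and 2 passed the stricter filter (log2 6). With dim values set to the array median, the median log2 difference of the list was -0.0004. Their part in the Igfbp7 values was not tested.

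**Figure D3:**
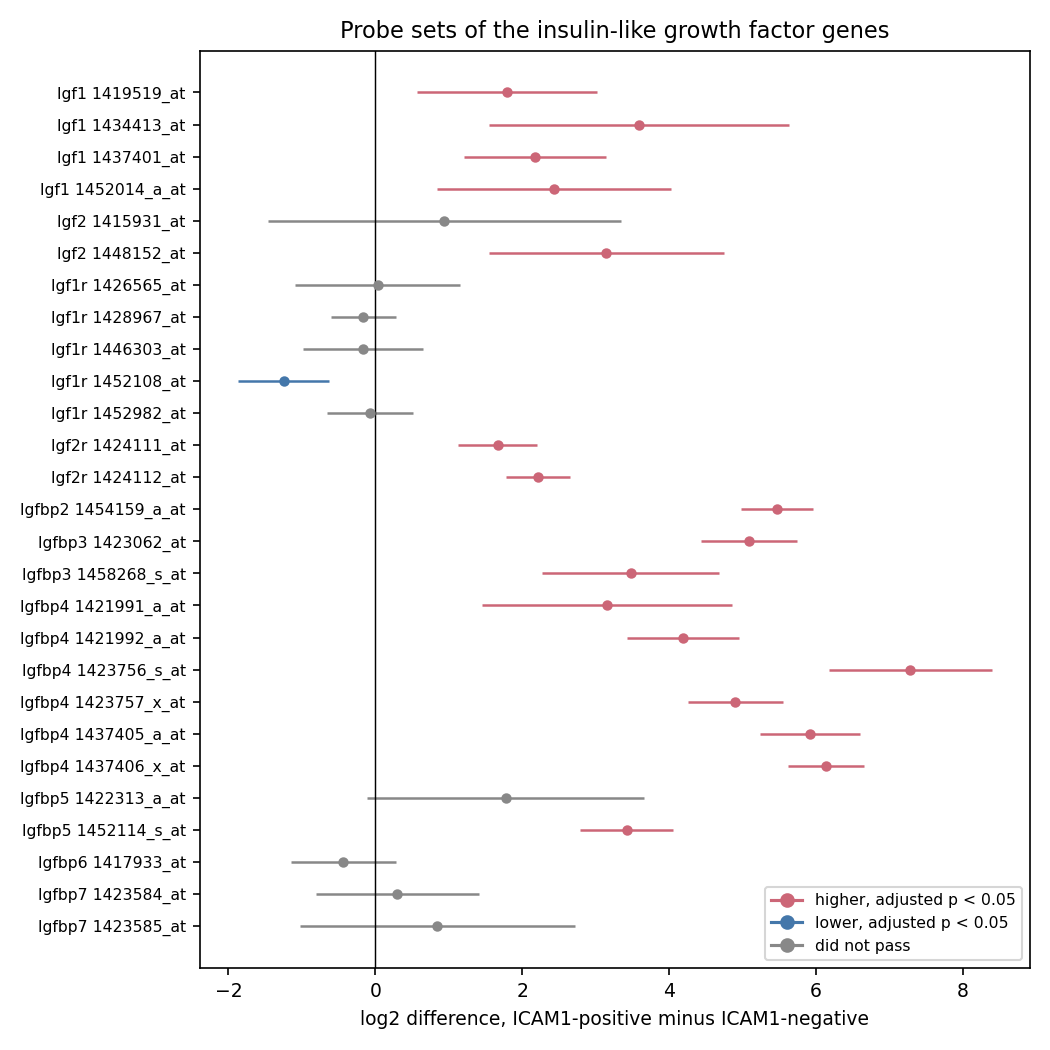
The log2 difference of intensity, ICAM1-positive minus ICAM1-negative, is plotted with its 95% confidence interval for the 27 probe sets that passed the filter, grouped by gene. All 6 probe sets of Igfbp4 and all 4 of Igf1 lie above 0, and 1 probe set of Igf1r, 1452108_at, is the only one called lower.

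Both ligand genes were higher in ICAM1-positive cells. Igf1 was dim in both sorts, and Igf2 in the ICAM1-negative sort. Igf2, which encodes the ligand best known from fetal growth and is imprinted, gave 125.4, 21.1 and 72.2 at 1448152_at in the ICAM1-negative sorts of litters 1, 2 and 3. It gave 605.1, 444.5 and 493.5 in the ICAM1-positive sorts, above every ICAM1-negative array. Means were 72.9 ± 52.2 and 514.4 ± 82.3 (SD, n = 3). The log2 difference was 3.15 ± 0.65 (SE; limma, adjusted p = 0.0129), and it was 2.27, 4.40 and 2.77 within the litters. It was 2.31 (adjusted p = 2.36e-05) with dim values set to the array median. That setting removes spread on the dim side, so its p-value does not measure the spread between litters. The call was lost without litter 3 (adjusted p = 0.0916). The other probe set, 1415931_at, lay below the array median on all 6 arrays, at 2.8, 8.5 and 35.2 against 8.9, 29.6 and 22.3. Its sorts overlapped and its difference of 0.94 ± 0.98 did not pass (adjusted p = 0.511).

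Igf1 encodes the ligand that growth hormone induces in liver and that many tissues, macrophages among them, also make. At 1419519_at, the brightest of its 4 probe sets, intensity was 42.8, 39.6 and 13.9 in the ICAM1-negative sorts and 139, 92.8 and 76.8 in the ICAM1-positive sorts. The sorts did not overlap, but the ICAM1-positive sort of litter 3 was still below its array median. The log2 difference was 1.80 ± 0.50 (SE; limma, adjusted p = 0.0366), and it was 1.70, 1.23 and 2.47 within the litters. Against the array median it was at least 1.04-fold. The other 3 probe sets were higher too, again without overlap. Intensity was 2.8, 24.9 and 6 against 130.4, 102.2 and 54.3 at 1434413_at, a log2 difference of 3.59 ± 0.83 (adjusted p = 0.0198). It was 17, 43.1 and 19.4 against 124.9, 117.5 and 90.1 at 1437401_at, a difference of 2.18 ± 0.39 (adjusted p = 0.00776). At 1452014_a_at it was 6.4, 40 and 17.8 against 101, 88.3 and 81.5, a difference of 2.44 ± 0.65 (adjusted p = 0.0318, or 0.0606 with litter as a block).

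All 4 Igf1 calls rest on intensities near or below the array median. With dim values set to it, the log2 differences were 0.18, 0.19, 0.24 and 0.00, in the order of the probe sets above, and none passed (limma, adjusted p = 0.594, 0.398, 0.210 and 0.998). Each of the 4 also missed the threshold without litter 1, at adjusted p = 0.115, 0.112, 0.0796 and 0.0918. Without litter 2 the call at 1419519_at was lost (0.119), and without litter 3 the calls at the other 3 were lost (0.103, 0.0664 and 0.157). Without the ICAM1-negative sort of litter 2 the call at 1419519_at was lost (0.0544), and without that of litter 3 those at 1434413_at (0.0642) and 1452014_a_at (0.0789). Without the ICAM1-positive sort of litter 1 or of litter 2 the calls at 1419519_at (0.104 and 0.0806), 1434413_at (0.0630 and 0.0584) and 1452014_a_at (0.0868 and 0.0776) were lost. Without that of litter 3 those at 1419519_at (0.0629) and 1452014_a_at (0.0756) were lost. Macrophage markers, summed over 12 genes, were at 789 to 964.5 in the ICAM1-negative and 14725.9 to 18823.1 in the ICAM1-positive sorts, with 11 of 12 higher. Their part in the Igf1 difference was not tested.

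Of the receptor genes, Igf2r rose at both of its probe sets. The brightest probe set of Igf1r, the signalling receptor, did not pass the test. The difference between the 2 genes was not tested. Igf2r at 1424111_at gave 265.7, 174.4 and 237.8 in the ICAM1-negative sorts and 760.1, 714.4 and 650.5 in the ICAM1-positive sorts. All 6 arrays were above their median and the sorts did not overlap. Means were 226 ± 46.8 and 708.3 ± 55.1 (SD, n = 3), and the log2 difference was 1.67 ± 0.22 (SE; limma, adjusted p = 0.00227), a 3.18-fold rise with a 95% interval of 2.19 to 4.60. It was 1.52, 2.03 and 1.45 within the litters. At 1424112_at intensity was 121.8, 105.9 and 108.3 against 567.2, 539.3 and 454, and the difference was 2.21 ± 0.18 (adjusted p = 0.000427).

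Igf1r has 5 probe sets, of which 4 did not pass and 1 was lower. At 1428967_at intensity was 2685.2, 2426.6 and 3188.2 in the ICAM1-negative sorts and 2596.3, 2357.3 and 2414.6 in the ICAM1-positive sorts. All 6 arrays were far above their median and the sorts overlapped. The means were 2767 ± 387 and 2456 ± 125 (SD, n = 3). The log2 difference was -0.16 ± 0.18 (SE; limma, adjusted p = 0.533), and the 95% interval of the ratio ran from 0.657 to 1.21. The next brightest, 1452982_at, gave 2531.2, 1806.5 and 3015.8 against 2411.5, 2081.9 and 2357.9, a difference of -0.07 ± 0.24 (adjusted p = 0.845). At 1426565_at it was 0.04 ± 0.46 (adjusted p = 0.962) and at 1446303_at -0.17 ± 0.33 (adjusted p = 0.737), with overlapping sorts at both.

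The probe set 1452108_at was the only one of the axis that was lower. It gave 193.8, 243.4 and 224.3 in the ICAM1-negative sorts and 71.6, 124.1 and 88.8 in the ICAM1-positive sorts, without overlap. Its log2 difference was -1.25 ± 0.25 (SE; limma, adjusted p = 0.0122), and it was -1.44, -0.97 and -1.34 within the litters. The call was lost without litter 1 (adjusted p = 0.0737) or litter 3 (0.115). The platform table lists the same source sequence for this probe set and for 1426565_at, which gave 458.4, 235.3 and 408 against 577.6, 205.6 and 399.1. The Igf1r probe sets disagreed, and they give the gene no single direction.

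From the highest to the lowest log2 difference at the brightest probe set, with its sign, the order was Igfbp4, Igfbp2, Igfbp3, Igfbp5, Igf2, Igf1, Igf2r, Igfbp7, Igf1r and Igfbp6. The 95% intervals of neighbours overlapped in this order, except for Igfbp3 (4.44 to 5.74) over Igfbp5 (2.79 to 4.06). The Igfbp3 interval rests on ICAM1-negative values below the array median, and the lowest Igfbp3 difference over the alternatives was 4.55. The differences of Igf1 and Igf2, with their dim ICAM1-negative side, depend on how low intensities are treated, so their place is less certain. The genes whose log2 intensity over the 6 arrays was most like that of Igfbp4, the member with the largest rise, were Aldh7a1, Ces1d and Ctsh, with Pearson r of 0.9998, 0.99975 and 0.9997. These 6 arrays are 2 separate clusters, so r mainly follows the difference between the sorts, and 2198 of 16389 genes had an r over 0.95.

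Of 20 measured genes of the IGF system besides the members, 8 were higher, 5 lower and 7 did not pass, with a median log2 difference of 0.79 (limma; all genes -0.06). Among all genes 20.6% were higher and 20.8% lower. The 5 lower genes of the list became 3 without litter 1, 3 without litter 2 and 2 without litter 3. Htra1, a secreted serine protease that cleaves IGF binding proteins, had the largest log2 difference of the intensities as deposited, against ICAM1-negative values below the array median. It gave 25, 10 and 13.6 in the ICAM1-negative sorts and 1208.8, 1093.1 and 1286.4 in the ICAM1-positive sorts, without overlap. Against the array median this was at least 12.4-fold, a bound below the 13.9-fold of Ghr, and the log2 difference was 6.31 ± 0.36 (SE; limma, adjusted p = 0.000185). Ghr, the growth hormone receptor, rose from 511.5 ± 103 to 6997 ± 320 (SD, n = 3), a log2 difference of 3.79 ± 0.21 (adjusted p = 0.000178). Plagl1, an imprinted zinc finger gene, rose from 1720 ± 313 to 13427 ± 656, a difference of 2.98 ± 0.20 (adjusted p = 0.000264).

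The largest fall was that of Pappa, which encodes PAPP-A, the protease that frees IGF from IGFBP4 and IGFBP5. It gave 1831.3, 1294.4 and 1883.2 in the ICAM1-negative sorts and 64.2, 111.9 and 124.1 in the ICAM1-positive sorts. The sorts did not overlap, and the log2 difference was -4.10 ± 0.32 (SE; limma, adjusted p = 0.000398). Grb14, an adaptor that inhibits insulin receptor signalling, fell from 483.6 ± 111 to 107.4 ± 34.9 (SD, n = 3), a difference of -2.20 ± 0.31 (adjusted p = 0.00286). Ins2, an insulin gene that neighbours Igf2, was at 35.6, 58.5 and 41.1 against 6.7, 15.6 and 16.3, below the median of every array. Its difference of -1.88 ± 0.41 (adjusted p = 0.0160) was lost with dim values set to the median (adjusted p = 0.998), without litter 2 (0.0797), without litter 3 (0.0729) and without the ICAM1-negative sort of litter 2 (0.0520).

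The other 2 genes that were lower, Irs1 and Pappa2, and 3 further genes, Irs2, Insr and Stc1, are named after their values were seen. Irs1 and Irs2 encode the docking proteins that link IGF1R and the insulin receptor to PI3K. Irs1 gave 3607, 2989.1 and 3771.1 in the ICAM1-negative sorts and 1671.4, 1570.1 and 2172.3 in the ICAM1-positive sorts, a log2 difference of -0.94 ± 0.21 (SE; limma, adjusted p = 0.0163). This call was lost without litter 1, 2 or 3 (adjusted p = 0.148, 0.0569 and 0.0702), without the ICAM1-negative sort of litter 1 (0.0560) or litter 3 (0.0532) and without the ICAM1-positive sort of litter 1 (0.0582). Irs2 went the other way, from 353.3, 381.9 and 418.8 to 1605, 1579.9 and 1667.3, a difference of 2.08 ± 0.16 (adjusted p = 0.000399). Both had sorts that did not overlap. Insr, the insulin receptor gene, was at 1251 ± 106 and 1738 ± 73.8 (SD, n = 3), and its difference of 0.48 ± 0.16 did not pass (adjusted p = 0.0693). It passed with the stricter filter (0.0353), with dim values set to the median (0.0114) and with an intensity trend in the variance (0.0212). Stc1 encodes a secreted inhibitor of PAPP-A. It rose at its brightest probe set from 57.9, 71.1 and 71.2 to 370.7, 344.3 and 425.8, at least 3.94-fold (log2 difference 2.51 ± 0.19 as deposited, adjusted p = 0.000345), and with its probe sets averaged the difference was 0.98 (adjusted p = 0.0673). Pappa2, a protease gene related to Pappa, was at 51.2 ± 6.31 and 22.6 ± 4.41 (SD, n = 3), below the median of every array. Its log2 difference was -1.19 ± 0.22 (adjusted p = 0.00852). That call was lost with dim values set to the median (0.998), with an intensity trend in the variance (0.0537), without litter 1 (0.0881) and without litter 3 (0.0920).

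**Figure D4:**
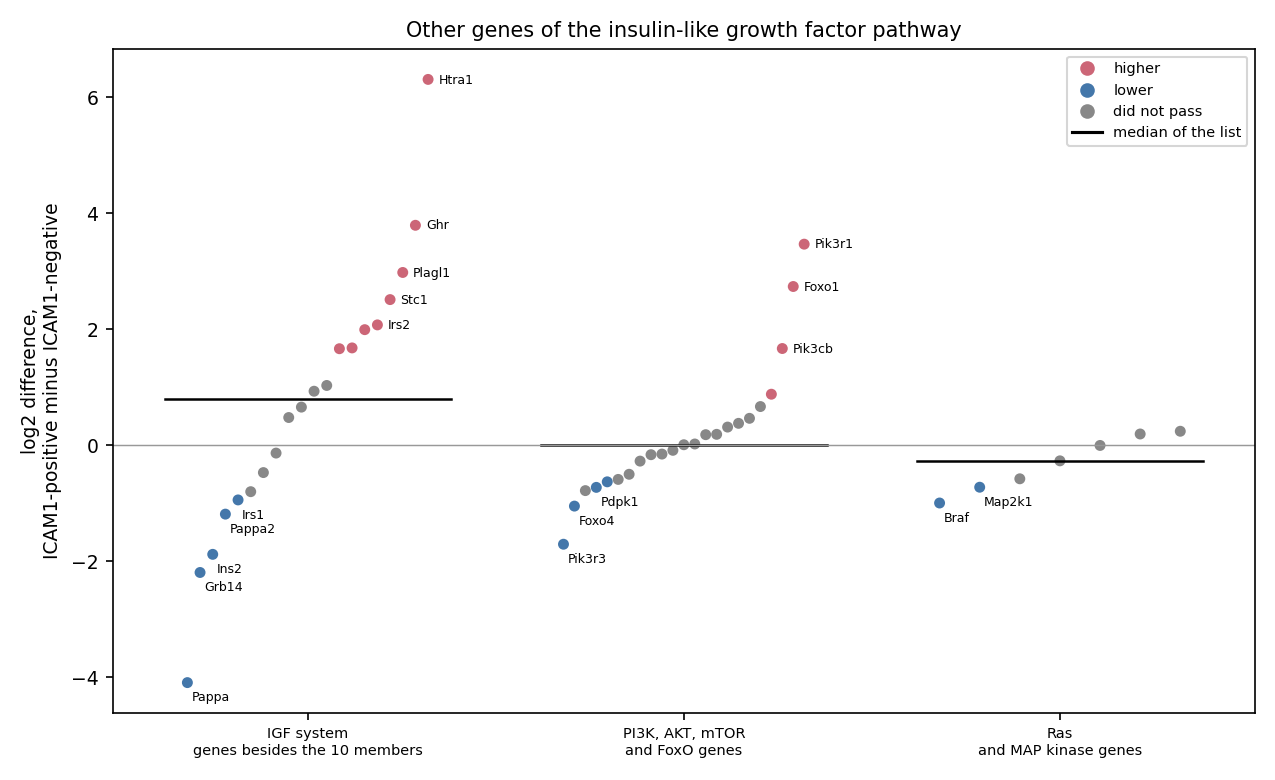
The log2 difference of intensity, ICAM1-positive minus ICAM1-negative, is plotted for each measured gene of the 3 pathway lists, 1 point per gene, with the named genes labelled and a line at each list's median. Htra1, Ghr and Plagl1 stand highest and Pappa lowest in the IGF system list, and the Ras and MAP kinase list has 0 genes called higher.

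Downstream of the receptor, 4 of 23 measured genes of the PI3K, AKT, mTOR and FoxO list were higher, 4 lower and 15 did not pass, with a median log2 difference of 0.01. Both counts are near the shares over all genes, 20.6% higher and 20.8% lower. With litter as a block 5 genes of the list were higher and 5 lower. Without litter 3, 2 were higher, and 1 was lower without litter 1 or litter 3. Without a single sort of litter 1 or litter 3, 2 were lower. Pik3r1, a regulatory subunit of PI3K, was at 794.1, 291.7 and 481.9 in the ICAM1-negative sorts and at 6978.2, 3701.3 and 5854.8 in the ICAM1-positive sorts. The sorts did not overlap, and the log2 difference was 3.47 ± 0.44 (SE; limma, adjusted p = 0.00196). Foxo1, a transcription factor that AKT holds outside the nucleus, rose from 1064 ± 167 to 7042 ± 332 (SD, n = 3), a difference of 2.74 ± 0.19 (adjusted p = 0.000293). Pik3cb, a catalytic subunit, rose by 1.67 ± 0.23 on the log2 scale (adjusted p = 0.00286, or 0.0510 without litter 3). Pik3r3, another regulatory subunit, fell from 1945 ± 129 to 594.4 ± 26.7, a difference of -1.71 ± 0.16 (adjusted p = 0.000675).

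Foxo4, a relative of Foxo1, was at 756.1 ± 19.9 and 370.9 ± 83.0 (SD, n = 3), a log2 difference of -1.05 ± 0.22 (limma, adjusted p = 0.0124). The call was lost without litter 1 (0.0972) or litter 3 (0.113), and with its probe sets averaged the difference was -0.25 (adjusted p = 0.513). Pdpk1, the kinase that activates AKT, was at 2836 ± 402 and 1719 ± 310, and its difference of -0.73 ± 0.21 passed narrowly (adjusted p = 0.0428). This call was lost without a filter (0.0599), with each array centred on its 75th percentile (0.0590), without litter 1, 2 or 3 (0.191, 0.0526 and 0.206), without the ICAM1-negative sort of litter 1, 2 or 3 (0.0775, 0.108 and 0.0825) and without the ICAM1-positive sort of litter 1 or 3 (0.124 and 0.132).

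Among 7 measured Ras and MAP kinase genes, 5 did not pass, 2 were lower and 0 higher, with a median log2 difference of -0.27 (limma). At an unadjusted p under 0.05 the counts were also 0 and 2. Over all genes, at the adjusted threshold, 20.6% were higher and 20.8% lower. Braf, a kinase of this route, was at 3126.8, 2744.2 and 2818 against 1501.2, 1348.5 and 1499.5 at its brightest probe set, a log2 difference of -0.998 ± 0.16 (SE; adjusted p = 0.00520). The sorts did not overlap. The call was lost without litter 1 (adjusted p = 0.0724) or litter 3 (0.0638), and the mean of its probe sets gave 0.06 (adjusted p = 0.865). Map2k1, the kinase below it, was at 4538 ± 467 and 2747 ± 325 (SD, n = 3), a difference of -0.73 ± 0.18 (adjusted p = 0.0267, or 0.0567 with litter as a block). That call was also lost without litter 1 (0.186) or litter 3 (0.204), without the ICAM1-negative sort of litter 1 (0.0768) or litter 3 (0.0767), and without the ICAM1-positive sort of litter 1 (0.0832) or litter 3 (0.0947).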

How the data were processed

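Gene expression was measured on Affymetrix mouse genome 430 2.0 arrays, with 45101 probe sets, in ICAM1-positive and ICAM1-negative sorts of 3 litters. Per the labels' protocols, RNA was amplified in 2 rounds before labelling. The authors deposited linear intensities. GCRMA is named in the series text and in the submitters' processing notes, and it gives log2 values, whereas the deposited intensities have a mean of 500 on every array after trimming 2% from each end, the form of Affymetrix MAS5-type scaling. The sources used here name no other program and hold no detection calls, and a scan batch was not tested. The number of arrays limits the precision.

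Intensities were taken to log2. Without the 64 control probe sets, probe sets above log2 4 (intensity 16) on at least 3 of 6 arrays were kept, which left 38694. By the platform's annotation, 34945 probe sets have 1 gene, 932 several and 9160 none. All 10 member symbols matched a RefSeq gene table of GRCm38.p6, and 10 had a promoter window. Under R 4.3.3, limma 3.58.1 with lmFit and a trend-free eBayes compared the sorts, two-sided, without a block. It was tested on simulated data. P-values rest on the spread between litters. A gene was read at its kept single-symbol probe set with the highest mean log2 intensity. Errors are SD beside means and SE beside log2 differences. Where the dimmer sort was below the array median on all its arrays, the fold was taken against that median and is a lower bound with no error.

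Replicate numbers mark litters, per the series text, and so pair the samples. Deviations from the group means correlated at 0.127, 0.199 and 0.0812 for arrays of the same litter and at -0.150 to 0.033 for others. The deviations within a sort cancel out, so the values for others are tied to those of the same litter. They are not a separate check of the pairing. Litter as a block was an alternative. The others were no filter, a stricter filter (log2 6), quantile normalization, centring on the 75th percentile, log2(intensity + 16), dim values (those under the array median) set to it, a variance trend, probe sets averaged per gene, and each litter and array left out in turn. Dim values set to the median lose part of their spread between litters, so p-values under that alternative do not measure it fully.

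Every member probe set is described. Of each pathway list the 3 genes with the largest rise and the 3 with the largest fall past the threshold are named, and the 3 genes most like the member with the largest rise by Pearson r. No member fell at its brightest probe set. The members, lists, rules and the bound on the fold were chosen with earlier results of these data known.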

Additional observations from a re-analysis of the deposited data

How the results depend on the processing

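Of 27 probe sets tested, 22 had a value under all 17 alternatives, and 12 of these kept their direction and their side of the threshold under each. The other 5 did not pass the stricter filter, and of them Igfbp6 1417933_at kept both under the remaining 16. The count of IGF axis genes higher was 6 to 7 over the alternatives, and 0 were lower in each. Of probe sets, 12 to 17 were higher, with 12 without litter 1 or 3, 13 with dim values set to the array median, 15 with the stricter filter and 16 with the replicate block. In that blocked fit, which pairs the sorts of a litter, the calls at Igf1 1452014_a_at (adjusted p = 0.0606) and Map2k1 (0.0567) were lost, and no other call of a member or a gene named from the pathway lists changed. With 1 litter or array left out, IGF axis probe sets lower numbered 0 to 1, all probe sets higher 3764 to 5854 (3764 without litter 1, 3775 without litter 3) and all lower 3678 to 6013 (3678 and 3915). Fewer arrays were tested there.

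Signs turned only for values that had not passed the threshold, with the exception of Braf, which was 0.0609 with probe sets averaged. With dim values set to the array median, Igf2 1415931_at and Igfbp7 1423585_at were both at -0.000353, since every array was then at its median. With arrays left out, 4 probe sets took either sign: Igf1r 1426565_at (-0.30 to 0.44), 1446303_at (-0.40 to 0.17) and 1452982_at (-0.28 to 0.0919), and Igfbp7 1423584_at (-0.11 to 0.92). The cause was not tested. Calls on dim probe sets, such as Igf1, are limited by signal over background, which the deposited values give no detection call for.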

Other observations

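One further probe set, 1440979_at, lists Igf2r together with Airn, a non-coding RNA transcribed across the Igf2r gene from the opposite strand, and was not counted among the members. It gave 38.1, 27.5 and 55.1 in the ICAM1-negative sorts of litters 1, 2 and 3 and 54.5, 56.8 and 73.5 in the ICAM1-positive sorts. All 6 values were below the array medians and the sorts overlapped. The log2 difference of 0.66 ± 0.30 (SE) did not pass the test (limma, adjusted p = 0.149).

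Igfbp1, the neighbour of Igfbp3, was at 1.6 to 3.8 on the 6 arrays and did not pass the filter on low values. Igfals, which encodes the third subunit of the serum complex of IGF and IGFBP3, did not pass it either, at 68.2, 18.9 and 7.1 in the ICAM1-negative and 10.7, 10.3 and 12.3 in the ICAM1-positive sorts.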
